A study of Homo sapiens with 12 samples.

Results

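Antisense RNAs are transcribed from the DNA strand opposite to a gene, and many are named after that gene with the ending -AS1. The 43 described here are the rows of an EU-seq count table whose gene symbol ends in -AS1 and whose raw count averaged at least 100 over the 12 libraries, out of 564 rows with that ending and 23434 rows in all. They were therefore selected by their name and by their measured level, and the level itself is given only as a description. Each was set beside its sense partner, the gene named before -AS1, and all 43 partners had a row. The members just inside the limit were KTN1-AS1 (mean raw count 102.7), ZBTB11-AS1 (107.6) and MIF-AS1 (109.2), and those just outside were PAXBP1-AS1 (96.4), TMEM147-AS1 (94.0) and MORC2-AS1 (92.8).

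EU-seq captures RNA made during a short pulse of 5-ethynyl-uridine, so that it reads transcription in that window rather than the stock of finished RNA. It was run in U2OS cells, a human osteosarcoma line; per the study the cells carry MycER, a Myc protein fused to the estrogen receptor that 4-hydroxytamoxifen (OHT) switches on. The 4 groups of 3 libraries are cells with a non-targeting hairpin (shNT), the same with OHT (shNT+OHT), cells with a hairpin against the transcription kinase CDK12 (shCDK12), and these with OHT (shCDK12+OHT). Groups with OHT received 300 nM for 40 h, and all 4 groups were given doxycycline at 1 µg/mL, arrested with nocodazole at 100 ng/mL for 8 h, released for 12 h and pulsed with 0.5 mM 5-ethynyl-uridine for 2 h, so that every comparison is between cells that share this schedule. Before capture, 40 µg of human RNA was mixed with 10 µg of mouse RNA. The labels do not say whether the libraries of a group come from separate cultures, and p-values then measure the spread between libraries, which may be technical.

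Antisense transcripts fall into a few kinds. Some start close to the promoter of the partner and run away from it, as the second product of a bidirectional promoter, while others start inside or beyond the partner and run through its introns or exons. Many are short-lived in the nucleus, where the RNA exosome and its adaptors degrade them, and assays of newly made RNA detect them before they are lost. CDK12 phosphorylates RNA polymerase II during elongation, and Myc binds E-box sequences in promoters together with its partner Max.

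The libraries held between 1251695 and 10447836 counts, an 8.35-fold range, with the shNT groups the shallowest, and 0 pairs of libraries were identical. CDK12, the gene the hairpin targets, was read first. It was at 323, 289 and 300.2 CPM (a count relative to the TMM-scaled total of its library) in shNT, 434, 356 and 400.5 in shNT+OHT, 293, 277 and 298 in shCDK12 and 215, 208 and 218 in shCDK12+OHT. Its log2 fold change was -0.08 (standard error 0.08, edgeR adjusted p = 0.447) in shCDK12 against shNT and -0.88 (standard error 0.11, edgeR adjusted p = 0.00011) in shCDK12+OHT against shNT+OHT. The CDK12 row was thus not lower in the libraries labelled shCDK12 without OHT. It reads newly made RNA and not the stock of finished RNA, and whether the hairpin acted was not tested. The groups are called by their labels throughout. MYC, a row that may also hold reads of the MycER construct, was at 2221, 2044 and 2013 CPM in shNT, 2199, 1706 and 1997 in shNT+OHT, 1214, 1035 and 1122 in shCDK12 and 2091, 2095 and 2000.4 in shCDK12+OHT. Its log2 fold change was -0.90 (edgeR adjusted p = 1.8e-10) in shCDK12 against shNT and 0.88 (edgeR adjusted p = 4.98e-08) upon OHT in the libraries labelled shCDK12. Whether the labels shCDK12 and shCDK12+OHT are right was not tested, and every direction drawn from either group carries this doubt, the comparison of shCDK12+OHT with shNT+OHT included. The comparison of shNT+OHT with shNT uses neither group. Of 9 mesenchymal markers 6 averaged at least 100 counts, with a summed level of 1608 to 1700 CPM in shNT, 1077 to 1169 in shNT+OHT, 438 to 457 in shCDK12 and 621 to 637 in shCDK12+OHT. Epithelial markers summed to at most 15.5 CPM and blood markers to at most 2.15 CPM in any library, while 4 neural markers, of which 1 averaged at least 100 counts, summed to 39.6 to 52.7, 115.0 to 128.7, 139.9 to 148.8 and 53.1 to 58.9 CPM in the same order of groups. These sums moved with the groups, and their part in the results was not tested.

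In the GENCODE v44 annotation (GRCh38), 42 of the 43 members were placed, and RefSeq lists all 43 as long noncoding RNAs. Head to head pairs, with starts at most 2000 bases apart on opposite strands, numbered 17. In 24 pairs the starts lay further apart and the gene bodies overlapped, and FOXD2-AS1 started 3403 bases from FOXD2 without overlap; ZNF143-AS1 had no entry. The part of the antisense exons covered by exons of the partner ran from 0 to 51.2% (EPB41L4A-AS1). Seen from the partner, the shared part could be larger. MIF-AS1 shared 687 of the 730 exon bases of MIF, and PCBP1-AS1 shared 1264 of the 1727 of PCBP1. DLGAP1-AS1 lies wholly inside introns of DLGAP1, KMT2E-AS1 lies with 84.3% of its exon bases in introns of KMT2E and PROSER2-AS1 with 76.0% in introns of PROSER2. The library kit marks strand, but whether the counting used it is not stated, so that in such pairs reads of the 2 strands cannot be told apart with certainty.

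Per kilobase of exon and averaged over all 12 libraries, the antisense row was the higher of the pair in 23 of 42 pairs and the sense row in 19. The antisense row was above its partner most at MAPKAPK5-AS1, with 26.4 against 1.31 CPM per kb, and at DLGAP1-AS1, with 9.87 against 0.609, and it was below most at PCBP1-AS1, with 1.76 against 128. Not every partner could be read. MIF, which encodes a macrophage cytokine, was listed at 0 counts in all 12 libraries although MIF-AS1 was not, and DHRS4, which has near-identical neighbouring copies, averaged 3.83 raw counts, so that the fold changes of neither partner were tested. LBX2 and SDCBP2 were also too low to test in any comparison. The pairs of MIF-AS1 and DHRS4-AS1 are among the 23 above, where their place rests on these partner rows. The 8 members with the highest mean CPM, not corrected for length, were FGD5-AS1, ZNF674-AS1, PSMA3-AS1, THAP9-AS1, MAPKAPK5-AS1, NOP14-AS1, THUMPD3-AS1 and C1RL-AS1. FGD5-AS1, the highest, was at 268, 276 and 221 CPM in shNT, 213, 233 and 279.5 in shNT+OHT, 233, 275 and 270.4 in shCDK12 and 243, 237 and 243 in shCDK12+OHT. Its 4 groups overlapped and it passed the test in none of the 5 comparisons (edgeR adjusted p from 0.271 to 0.946), while its partner FGD5, an exchange factor for the small GTPase CDC42, was lower in shCDK12 than in shNT with a log2 fold change of -1.66 (standard error 0.21, edgeR adjusted p = 2.28e-07).

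Because Myc and Max bind the E-box CACGTG, the promoter windows that RefSeq gives for GRCh38.p14 (250 bases before the start to 50 after it) were searched for these letters, which read the same on both strands. They were found in 3 of 37 antisense windows (8.11%) and in 2 of 42 sense windows (4.76%), against 7.43% of all 27305 windows that RefSeq gives, and in 0 pairs on both sides. The 5 matches are shown because they are the members and partners that carry the motif, with the E-box in capitals and each read along its own gene.
OIP5-AS1: actatcttacCACGTGgtacagcttcta
PITX1-AS1: gcttcggccgcgCACGTGggccggatccct
ZNF667-AS1: ctctcaggagatCACGTGtggacactgagg
NOP14: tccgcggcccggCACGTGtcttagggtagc
ZBTB11: ctaCACGTGgctccttagaaa
They lie at chr15:41283740-41283767 (plus strand), chr5:135033098-135033127 (plus), chr19:56477634-56477663 (plus), chr4:2963374-2963403 (minus) and chr3:101677362-101677382 (minus). Relative to the start of the gene the motif began at -240, -164 and -228 in the 3 antisense windows in that order, at 15 in NOP14 and at -247 in ZBTB11. In shNT+OHT against shNT the 5 rows had log2 fold changes from -0.21 (ZBTB11) to 0.42 (NOP14), with edgeR adjusted p from 0.19 to 0.605. A match describes letters in a window and not a bound site.

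All 43 members passed the filter on low counts in each of the 5 comparisons, although 23 had a group with a mean raw count under 100. In the 4 comparisons of 2 groups, 34 were called at least once and 9 were not: FGD5-AS1, KRT10-AS1, PSMA3-AS1, PTOV1-AS1, SDCBP2-AS1, SLFNL1-AS1, SPEN-AS1, TTC28-AS1 and ZBTB11-AS1. Log2 fold changes of these 9 ran from -0.44 (PSMA3-AS1) to 0.52 (TTC28-AS1), and the smallest edgeR adjusted p among them was 0.0599. Of all genes tested, from 17.3 to 62% were called in these comparisons, and the share called at least once was not counted. Of the 43, 15 had their highest group mean in shCDK12, 11 in shNT+OHT, 9 in shNT and 8 in shCDK12+OHT.

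In the libraries labelled shCDK12 against shNT, 18 of the 43 antisense RNAs were higher and 7 lower, 25 in all, by the quasi-likelihood test of edgeR with p-values adjusted over every gene tested and a limit of 0.05. Of all 11718 genes tested, 62% were called, 29.6% higher and 32.4% lower, so that the share of members called, 58.1%, was near the background. Their median log2 fold change was 0.11, against -0.027 over all genes. The split and the median are not independent of the count limit, which was set over all 12 libraries. KTN1-AS1 had 40, 89 and 22 raw counts in shNT and 138, 303 and 185 in shCDK12. PRKCQ-AS1 had 75, 67 and 43 against 175, 386 and 203, and ZNF667-AS1 68, 71 and 37 against 129, 390 and 234. With a limit of 50 counts the median of the members was below 0. In bulk samples, fewer cells that make an RNA and less RNA made per cell cannot be told apart.

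PROSER2-AS1 fell furthest. It was at 93.5, 88.8 and 97.7 CPM in shNT and 93.7, 107 and 102 in shNT+OHT, against 19.9, 25.1 and 21.5 in shCDK12 and 19.4, 18.1 and 16.7 in shCDK12+OHT. The 6 libraries with one hairpin did not overlap the 6 with the other. The log2 fold change was -2.05 (standard error 0.14, edgeR adjusted p = 3.31e-12), a 4.15-fold lower level, and with OHT it was -2.46 (standard error 0.14, edgeR adjusted p = 2.04e-06), which is 5.48-fold lower. PROSER2, a gene for a proline- and serine-rich protein, moved the other way, from 36.3, 44.1 and 37.1 CPM in shNT to 78.7, 76.8 and 85.3 in shCDK12 and from 49.2, 37.9 and 55.4 in shNT+OHT to 75.3, 82.5 and 75.1 in shCDK12+OHT. It was higher in the hairpin libraries by 1.02 (standard error 0.13, edgeR adjusted p = 2.55e-07) without OHT and by 0.69 (standard error 0.15, edgeR adjusted p = 0.00333) with it. The PROSER2 libraries did not overlap between the hairpins in either state.

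Among the other falls in shCDK12 against shNT were DLGAP1-AS1, SH3BP5-AS1 and WAC-AS1. DLGAP1-AS1 was at 27.4, 32.6 and 23.1 CPM in shNT and 9.96, 9.44 and 11.7 in shCDK12, without overlap, a log2 fold change of -1.45 (standard error 0.21, edgeR adjusted p = 1.43e-06). SH3BP5-AS1 was at 41, 41.4 and 46.6 against 16.7, 20.7 and 24.2 CPM (log2 fold change -1.05, edgeR adjusted p = 8.62e-06). WAC-AS1 was at 47.8, 42.7 and 34.6 against 18.3, 20.6 and 22.6 CPM (-1.04, edgeR adjusted p = 7.31e-06). Neither SH3BP5, which encodes an activator of RAB11, nor WAC, an adaptor in histone H2B ubiquitination, passed the test there, at -0.18 (edgeR adjusted p = 0.634) and -0.21 (edgeR adjusted p = 0.0784). ZNF674-AS1, the second most abundant member, was lower as well, at 98.2, 107 and 105 against 186, 196 and 175 CPM (-0.85, edgeR adjusted p = 2.06e-08), and its head to head partner ZNF674 fell with it (-0.53, edgeR adjusted p = 0.00214).

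The largest rises were at MAPKAPK5-AS1, KTN1-AS1, ZNF667-AS1 and PRKCQ-AS1. MAPKAPK5-AS1 went from 63, 50.6 and 41.1 CPM in shNT to 126, 133 and 152 in shCDK12, a log2 fold change of 1.38 (standard error 0.13, edgeR adjusted p = 9.45e-10), while MAPKAPK5, a kinase downstream of p38, was at -0.40 (edgeR adjusted p = 0.143). KTN1-AS1 went from 9.37, 17.4 and 11 to 32, 31.8 and 34.2 CPM (1.33, edgeR adjusted p = 4.68e-06), and KTN1, the kinesin receptor kinectin, was lower with a log2 fold change of -0.40 (edgeR adjusted p = 0.00136). ZNF667-AS1 went from 15.9, 13.9 and 18.5 to 29.9, 40.9 and 43.3 CPM (1.28, edgeR adjusted p = 2.59e-06) and its partner ZNF667, a zinc-finger gene, rose with it (1.16, edgeR adjusted p = 1.57e-06). PRKCQ-AS1 went from 17.6, 13.1 and 21.6 to 40.5, 40.5 and 37.6 CPM (1.24, edgeR adjusted p = 2.96e-06), and PRKCQ, protein kinase C theta, was higher by 0.68 (edgeR adjusted p = 0.00825). In each of these 4 antisense RNAs the lowest shCDK12 library lay above the highest shNT library, as the rule for naming them required. Smaller rises included PCBP1-AS1 (0.99), GABPB1-AS1 (0.97), FOXD2-AS1 (0.81), MRPL20-AS1 (0.81), KMT2E-AS1 (0.75) and TRAM2-AS1 (0.71), with edgeR adjusted p from 4.84e-07 to 0.00165.

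**Figure D1:**
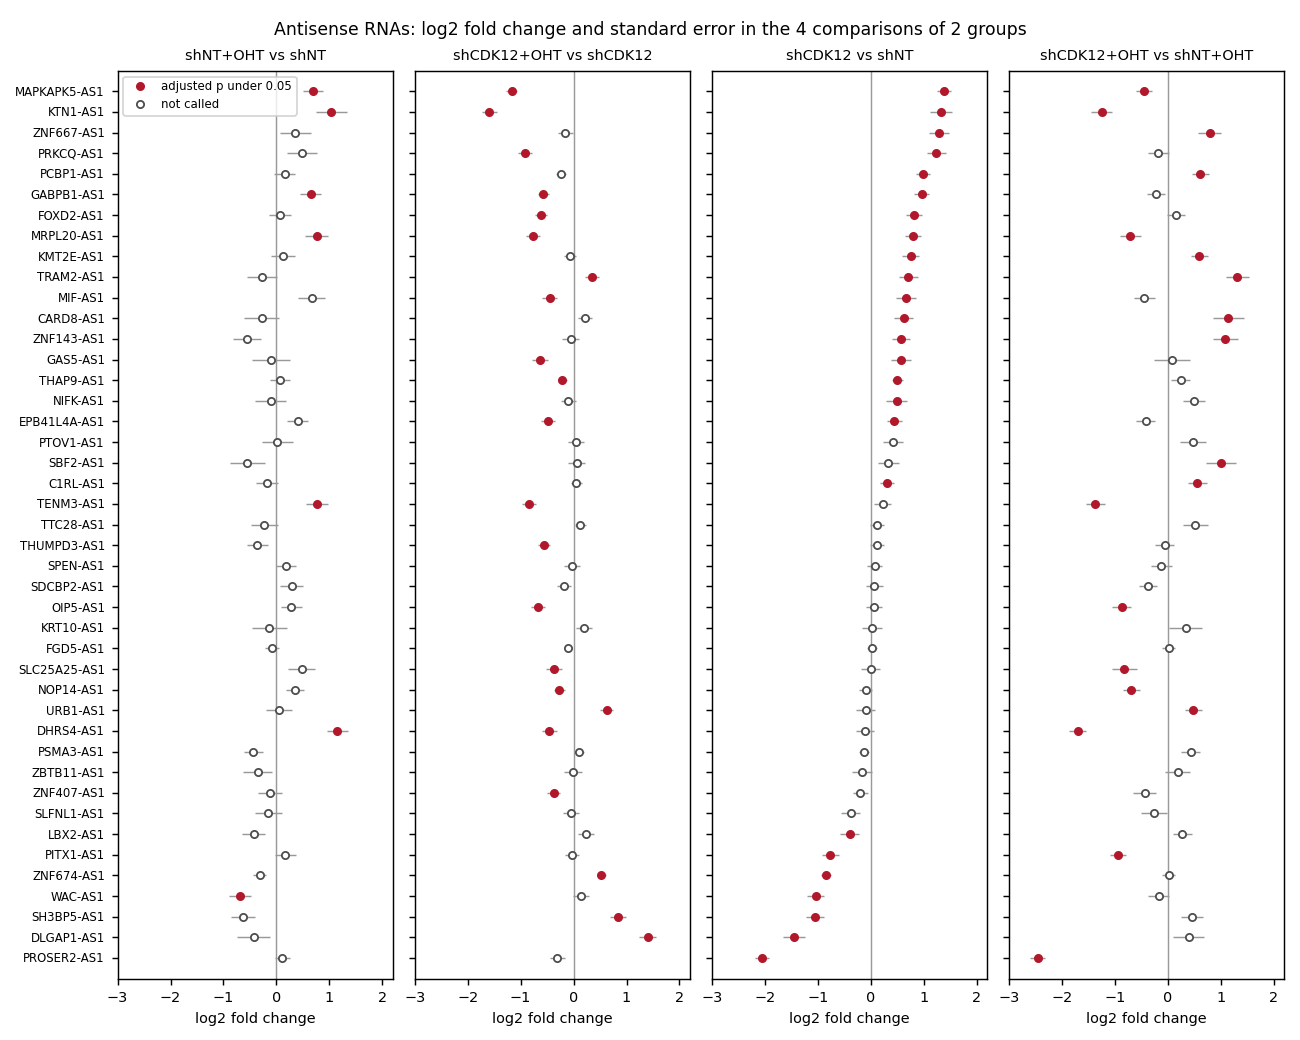
Log2 fold change of each of the 43 antisense RNAs (rows, ordered by shCDK12 against shNT) with its standard error (bars) in the 4 comparisons of 2 groups, under the labels as deposited; filled points passed an edgeR adjusted p of 0.05. PROSER2-AS1 lies furthest left in both comparisons of the hairpins, at -2.05 and -2.46. The test was passed by 7 members in shNT+OHT against shNT, where 17.3% of all genes tested were called. It was passed by 25 in shCDK12 against shNT, where 62% were.

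With OHT, the CDK12 hairpin had 9 antisense RNAs higher and 10 lower than the non-targeting one, 19 of 43 in all, where 45.4% of the 11668 genes tested were called, 23.8% higher and 21.6% lower. The median of the members was 0.012 and that of all genes 0.048. TRAM2-AS1, antisense to a gene for an endoplasmic reticulum translocation protein, rose most, from 17.9, 9.9 and 18.6 to 38.9, 41.8 and 39.5 CPM (1.31, standard error 0.21, edgeR adjusted p = 0.000608). CARD8-AS1 went from 9.4, 16.5 and 24.4 to 32.2, 35.2 and 43.2 CPM (1.14, edgeR adjusted p = 0.00833). ZNF143-AS1 and SBF2-AS1 were also higher, by 1.09 (edgeR adjusted p = 0.0041) and 1.00 (edgeR adjusted p = 0.0139); the call of SBF2-AS1 was lost without shCDK12+OHT replicate 2 or 3 (edgeR adjusted p = 0.0505 and 0.0708).

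After PROSER2-AS1, the falls with OHT were largest at DHRS4-AS1, TENM3-AS1 and KTN1-AS1. DHRS4-AS1 was at 63, 59.4 and 60.3 CPM in shNT+OHT and 19.2, 19.4 and 16.5 in shCDK12+OHT (-1.71, standard error 0.16, edgeR adjusted p = 2.22e-05). TENM3-AS1 was at 51.1, 67.6 and 50.7 against 19.8, 24 and 19.2 CPM (-1.37, edgeR adjusted p = 0.000181), and TENM3, a teneurin of the cell surface, fell with it (-0.50, edgeR adjusted p = 0.00694). KTN1-AS1 was at 25.1, 30.5 and 24.1 against 11.3, 11.4 and 9.43 CPM (-1.26, edgeR adjusted p = 0.000719), the reverse of its rise without OHT. None of these 3 overlapped between the groups, which was a condition for naming them. The comparisons with and without OHT share no library. Of the members, 9 were called the same way in both: PROSER2-AS1 and PITX1-AS1 lower, and C1RL-AS1, CARD8-AS1, KMT2E-AS1, PCBP1-AS1, TRAM2-AS1, ZNF143-AS1 and ZNF667-AS1 higher. The 3 called in opposite ways, KTN1-AS1, MAPKAPK5-AS1 and MRPL20-AS1, were higher with the CDK12 hairpin in the absence of OHT and lower with it in its presence. The last of these was at 0.81 (edgeR adjusted p = 5.37e-05) without OHT and at -0.71 (edgeR adjusted p = 0.0114) with it. How many of all genes were called in both comparisons was not counted. With OHT, 9 of the 19 calls were lost when single libraries were left out. C1RL-AS1 lost its call in all fits but that without shNT+OHT replicate 1 (edgeR adjusted p from 0.0768 to 0.139), and ZNF667-AS1 without shNT+OHT replicate 3 or shCDK12+OHT replicate 1 or 3 (0.0517 to 0.0678). MAPKAPK5-AS1 lost its call without shNT+OHT replicate 3 or shCDK12+OHT replicate 1 or 3 (edgeR adjusted p from 0.117 to 0.135) and MRPL20-AS1 without shCDK12+OHT replicate 1 or 3 (0.0585 to 0.0628). URB1-AS1 was lost without shNT+OHT replicate 2 or any shCDK12+OHT library (0.0668 to 0.151), SLC25A25-AS1 without shCDK12+OHT replicate 1 or 2 (0.0577 to 0.0712), and KMT2E-AS1 and PCBP1-AS1 without shCDK12+OHT replicate 2 (0.0819 and 0.0561).

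Upon OHT in shNT cells, 6 antisense RNAs rose and 1 fell. That is 7 of 43, or 16.3%, against 17.3% of the 10272 genes tested (9.05% higher and 8.29% lower), a share near the background. The split was 7 higher and 4 lower with all 12 libraries in a single fit, and it turned with the gene length trend removed, to 1 higher and 4 lower, where KTN1-AS1, TENM3-AS1, MRPL20-AS1, MAPKAPK5-AS1 and GABPB1-AS1 lost their call (edgeR adjusted p from 0.0655 to 0.145). The median of the members was 0.052 and that of all genes -0.029. DHRS4-AS1 rose most, from 32.1, 24.6 and 25.1 to 63, 59.4 and 60.3 CPM, a 2.22-fold rise (1.15, standard error 0.19, edgeR adjusted p = 0.00133). KTN1-AS1 went from 9.37, 17.4 and 11 to 25.1, 30.5 and 24.1 CPM (1.03, edgeR adjusted p = 0.0253) and TENM3-AS1 from 37.5, 27.9 and 32.1 to 51.1, 67.6 and 50.7 CPM (0.77, edgeR adjusted p = 0.0192). MRPL20-AS1 rose from 29.7, 33.6 and 25.6 to 63, 40.4 and 46.4 CPM (0.76, edgeR adjusted p = 0.0245) together with MRPL20, a protein of the large mitochondrial ribosomal subunit (0.76, edgeR adjusted p = 0.0185). MAPKAPK5-AS1 (0.68, edgeR adjusted p = 0.0225) and GABPB1-AS1 (0.65, edgeR adjusted p = 0.0352) were the other rises. WAC-AS1 was the fall, from 47.8, 42.7 and 34.6 to 25.1, 26.4 and 26.7 CPM (-0.69, edgeR adjusted p = 0.0318). In none of the 7 did the groups overlap, which was a condition for naming the 4 largest rises and the fall.

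This comparison has the shallowest libraries and rested on single ones. Leaving out shNT replicate 3 left 1 member called, replicate 2 of that group 2 members and replicate 1 of it 3 members. Leaving out shNT+OHT replicate 3 left 4 called, while 9 were called when replicate 1 of that group was dropped and 10 when replicate 2 was. DHRS4-AS1 was the member that stayed called in all 6 of these fits. The log2 fold changes of the other 6 kept their sign, and their edgeR adjusted p, where the call was lost, ran from 0.0579 to 0.174.

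In the libraries labelled shCDK12, those with OHT had 5 antisense RNAs higher and 17 lower than those without. The 22 of 43 called stand beside 48.9% of 12519 genes, of which 27.5% were higher and 21.5% lower. The medians were -0.11 for the members and 0.048 for all genes. KTN1-AS1 fell from 32, 31.8 and 34.2 to 11.3, 11.4 and 9.43 CPM (-1.59, standard error 0.15, edgeR adjusted p = 1.07e-07). MAPKAPK5-AS1 fell from 126, 133 and 152 to 56.9, 69 and 55.9 CPM (-1.17, edgeR adjusted p = 7.66e-08), PRKCQ-AS1 from 40.5, 40.5 and 37.6 to 19.6, 20 and 23.6 CPM (-0.92, edgeR adjusted p = 1.57e-05) and TENM3-AS1 from 39.8, 38.7 and 35.3 to 19.8, 24 and 19.2 CPM (-0.84, edgeR adjusted p = 5.57e-05). OIP5-AS1, a conserved RNA also known as Cyrano, fell with a log2 fold change of -0.67 (edgeR adjusted p = 0.000315). Its call was lost after thinning to the smallest total (-0.41, edgeR adjusted p = 0.0868). DLGAP1-AS1 rose from 9.96, 9.44 and 11.7 to 25.4, 28.1 and 27.8 CPM (1.40, edgeR adjusted p = 9.47e-07), which brought it to the range of the shNT libraries. The other rises were SH3BP5-AS1 (0.84, edgeR adjusted p = 0.000125), URB1-AS1 (0.62, edgeR adjusted p = 0.000575), ZNF674-AS1 (0.53, edgeR adjusted p = 9.36e-05) and TRAM2-AS1 (0.34, edgeR adjusted p = 0.0413). The call of TRAM2-AS1 was lost in 5 of the 6 fits that left out a library, those without shCDK12 replicate 1 or 3 or any shCDK12+OHT library, with edgeR adjusted p from 0.0765 to 0.141.

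The effect of OHT was compared between the 2 hairpins by an interaction term over all 12 libraries. The response was more positive in the libraries labelled shCDK12 for 6 antisense RNAs and more negative for 13, 19 in all. Over all 11699 genes 45.2% were called, 25.6% more positive and 19.6% more negative. With upper-quartile normalization the members split into 4 and 16. The median interaction was -0.20 for the members and 0.10 for all genes; upper-quartile normalization moved that of all genes to -0.017 and that of the members to -0.32, so that the members stayed lower than all genes by 0.31 under both. The largest were KTN1-AS1 (-2.61, standard error 0.31, edgeR adjusted p = 1.35e-06), MAPKAPK5-AS1 (-1.86, edgeR adjusted p = 1.28e-06) and DHRS4-AS1 (-1.62, edgeR adjusted p = 1.04e-05) on the negative side and DLGAP1-AS1 (1.81, edgeR adjusted p = 0.000386), SH3BP5-AS1 (1.49, edgeR adjusted p = 0.000131) and WAC-AS1 (0.84, edgeR adjusted p = 0.0107) on the positive side. The OHT comparisons in the 2 backgrounds share no library, and 6 members were called in both. All 6 went in opposite ways, higher upon OHT in shNT cells and lower in the libraries labelled shCDK12: DHRS4-AS1, GABPB1-AS1, KTN1-AS1, MAPKAPK5-AS1, MRPL20-AS1 and TENM3-AS1. None of the 6 kept both calls in all fits that left out a library. DHRS4-AS1 lost its call in the libraries labelled shCDK12 without shCDK12 replicate 3 (edgeR adjusted p = 0.0549). The others lost their call in shNT cells in some of these fits. Of all genes tested, 17.3% were called upon OHT in shNT cells and 48.9% in the libraries labelled shCDK12. How many of all genes were called in both, and how many of those reversed, was not counted. GABPB1-AS1, head to head with the gene for a subunit of the GABP transcription factor, was at 31.2, 31.6 and 27.6 CPM in shNT, 41, 55.3 and 48.1 in shNT+OHT, 56, 62.1 and 59.6 in shCDK12 and 35.7, 44 and 39.9 in shCDK12+OHT. All libraries of the other 3 groups lay above those of shNT.

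**Figure D2:**
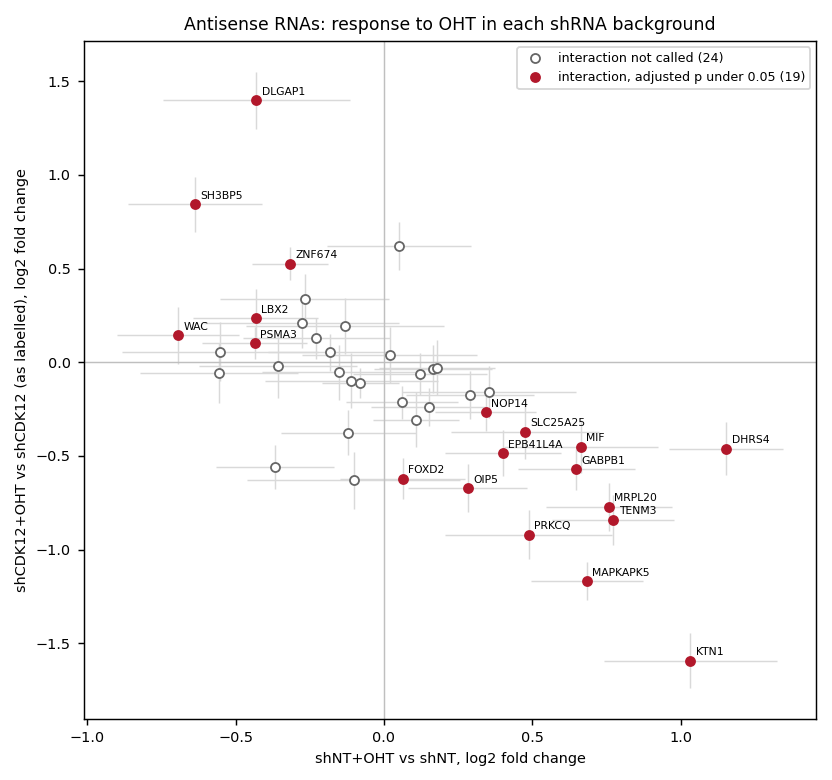
Log2 fold change upon OHT in shNT cells (horizontal axis) and in the libraries labelled shCDK12 (vertical axis) for the 43 antisense RNAs, with standard errors; filled points, named without the ending -AS1, are the 19 with an interaction past an edgeR adjusted p of 0.05. KTN1-AS1 is at 1.03 and -1.59, DLGAP1-AS1 at -0.43 and 1.40, and 6 members were called on both axes with opposite signs. This count was not made over all genes, and each of the 6 lost a call when single libraries were left out.

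Each antisense RNA was then compared with its partner. In shCDK12 against shNT both rows of a pair were tested in 39 pairs, and both were called in 14: 4 in the same direction and 10 in opposite directions. The latter were C1RL-AS1, CARD8-AS1, DLGAP1-AS1, KMT2E-AS1, KTN1-AS1, NIFK-AS1, PITX1-AS1, PROSER2-AS1, TRAM2-AS1 and ZNF143-AS1 with their partners. In 7 of them the antisense RNA was higher and the sense gene lower, and in DLGAP1-AS1, PITX1-AS1 and PROSER2-AS1 it was the reverse. Of these pairs 4 are head to head, 5 overlap in their bodies and 1 has no annotated position. With the median member at 0.11, that of the 39 partners was -0.054. Of these partners 10 were higher and 10 lower, where 62% of all genes tested were called. How often unrelated rows were called in the same or in opposite directions was not counted in any comparison. Across the 39 pairs the log2 fold changes of antisense and sense had a Pearson r of -0.24 (Spearman -0.24), which describes pairs measured in the same libraries. In shCDK12+OHT against shNT+OHT, 7 pairs were called in the same direction and 4 in opposite ones out of 38, with an r of 0.17 (Spearman 0.30).

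**Figure D3:**
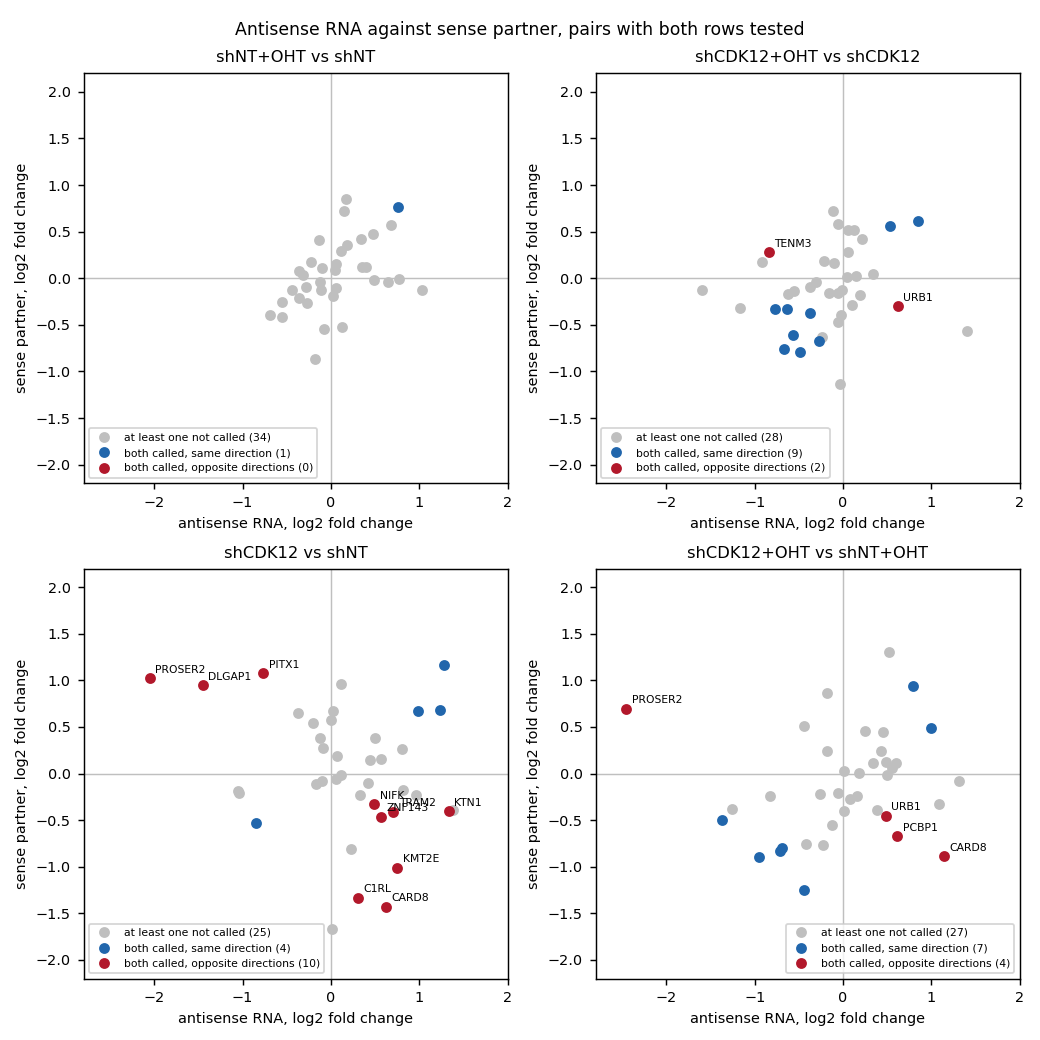
Log2 fold change of the antisense RNA (horizontal axis) and of its sense partner (vertical axis), 1 point per pair with both rows tested, in the 4 comparisons of 2 groups under the labels as deposited; colours mark pairs with both rows called in the same (blue) or in opposite (red) directions. Opposite pairs, named by the sense gene, number 10 of 39 in shCDK12 against shNT and 4 of 38 in shCDK12+OHT against shNT+OHT.

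KMT2E-AS1 rose in the hairpin libraries while KMT2E, the chromatin regulator whose introns hold most of it, fell. The antisense RNA was at 40.8, 55 and 31.6 CPM in shNT and 62.3, 81.7 and 75.5 in shCDK12, and the sense gene at 261, 211 and 206 and 118, 114 and 106, neither with overlap. The log2 fold changes were 0.75 (standard error 0.15, edgeR adjusted p = 0.000165) and -1.01 (standard error 0.10, edgeR adjusted p = 3.58e-09). Between shNT+OHT and shCDK12+OHT the antisense RNA went from 47.3, 34.6 and 55.7 to 68.3, 78.5 and 64 CPM (0.59, edgeR adjusted p = 0.0142) and KMT2E from 152, 155 and 166 to 193, 149 and 163 (0.11, edgeR adjusted p = 0.494). Without shCDK12+OHT replicate 2 the call of KMT2E-AS1 with OHT was lost (edgeR adjusted p = 0.0819).

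CARD8-AS1 and CARD8, an inflammasome sensor, start 271 bases apart. CARD8-AS1 was at 18, 24.6 and 18 CPM in shNT and 28, 32.6 and 33.9 in shCDK12 (0.62, edgeR adjusted p = 0.00414), and CARD8 at 23.7, 23.2 and 28.6 and 6.02, 11 and 9.81 (-1.43, edgeR adjusted p = 9.51e-06). With OHT the pair was again called in opposite directions (1.14 and -0.89), but CARD8 was at 14.5 CPM in 1 of the shCDK12+OHT libraries and 13.9 in 1 of the shNT+OHT libraries, so its groups overlapped. At least 1 of the 2 calls was lost in 5 of the 6 fits that left out a library, all but that without shNT+OHT replicate 3, with adjusted p up to 0.12.

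PITX1, a homeobox gene of hindlimb development, and PITX1-AS1 start 1533 bases apart. PITX1-AS1 was at 62.8, 41.4 and 46.1 CPM in shNT, 51.4, 56.1 and 61.8 in shNT+OHT, 30.3, 27.6 and 31.3 in shCDK12 and 26.8, 29.7 and 30.3 in shCDK12+OHT. It was thus lower with the hairpin in both states (-0.76 (edgeR adjusted p = 0.000248) without and -0.95 (edgeR adjusted p = 0.000614) with OHT) and did not pass the test upon OHT in either hairpin (0.17 (edgeR adjusted p = 0.605) and -0.03 (edgeR adjusted p = 0.842)). PITX1 followed another order, at 7.5, 8 and 9.52, 10.7, 19.8 and 15.7, 15.7, 20.4 and 15 and 8.69, 8.65 and 5.8 CPM in the same groups. It was called higher in shCDK12 than in shNT (1.08, edgeR adjusted p = 0.000522), opposite to PITX1-AS1, and lower with the same hairpin in the presence of OHT (-0.90, edgeR adjusted p = 0.0284), like PITX1-AS1.

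DLGAP1-AS1 lies within introns of DLGAP1, which encodes a scaffold protein of the postsynaptic density. DLGAP1 was at 4.22, 4.29 and 7.52 CPM in shNT and 6.95, 9.86 and 11.8 in shCDK12 (0.95, edgeR adjusted p = 0.0129). The shNT and shCDK12 libraries overlapped for the sense row, whose call was lost in 4 of the 6 fits that left out a library, those without shNT replicate 1 or 2 or shCDK12 replicate 2 or 3 (adjusted p up to 0.0736). In the interaction 6 pairs were called in the same direction and this 1 in opposite ones. DLGAP1 was there at -1.36 (edgeR adjusted p = 0.0156), opposite to the 1.81 of DLGAP1-AS1, and the pair was not called there without shNT replicate 2 (adjusted p = 0.0505). TRAM2 fell in shCDK12 against shNT (-0.41, edgeR adjusted p = 0.00061) where TRAM2-AS1 rose. Of the 10 opposite pairs in this comparison, PROSER2-AS1, KMT2E-AS1, TRAM2-AS1, CARD8-AS1, KTN1-AS1 and PITX1-AS1 kept both calls in all 6 fits that left out a library, and the first 3 also under the 8 other settings tried. The pairs of C1RL-AS1, NIFK-AS1 and ZNF143-AS1 rested on single libraries, and kept both calls in 2, 0 and 3 of the 6 fits; the largest adjusted p was 0.179, 0.25 and 0.186. The number of opposite pairs was 6 without shNT replicate 2 or shCDK12 replicate 3, and from 7 to 9 without any of the other 4 libraries.

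**Figure D4:**
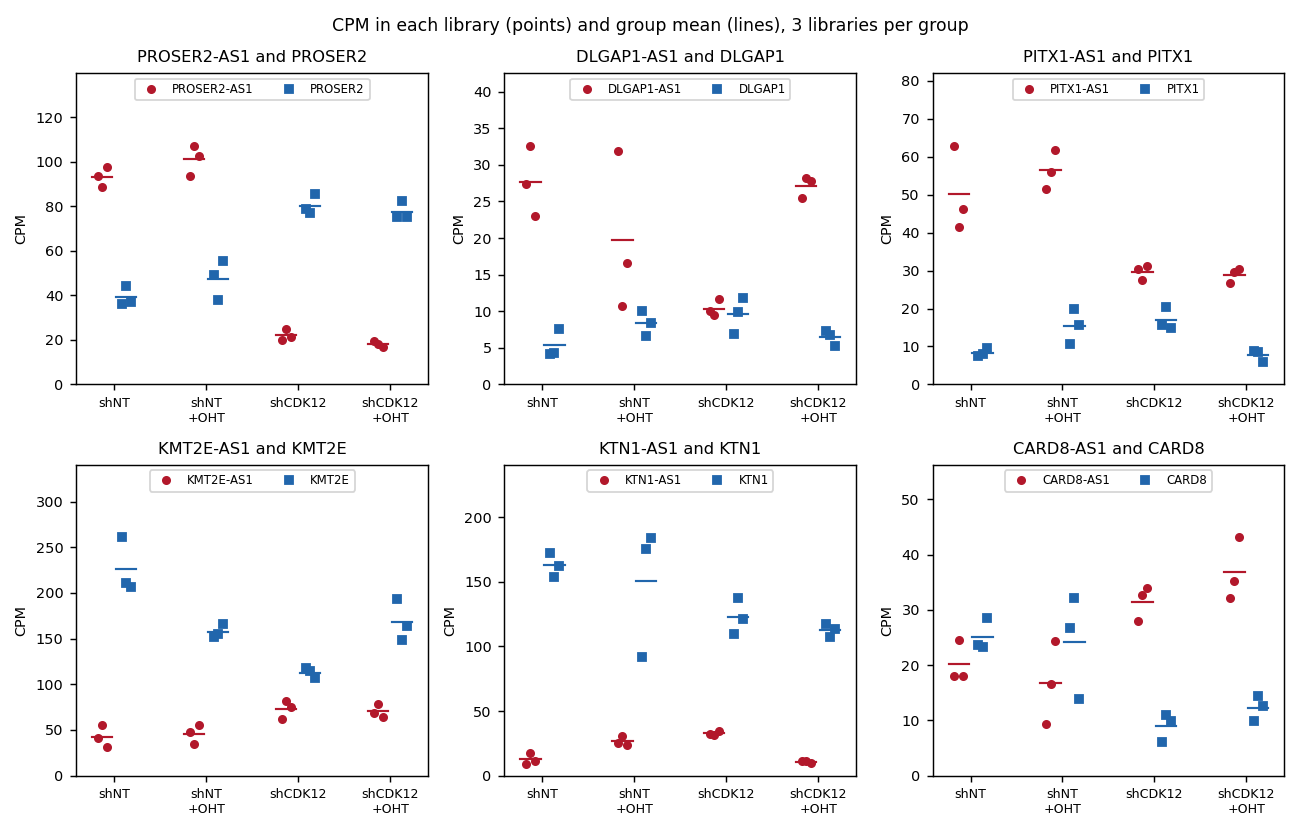
CPM of the antisense RNA (red circles) and of its sense partner (blue squares) in each of the 12 libraries, with the group mean as a line, for 6 pairs called in opposite directions in shCDK12 against shNT; axes start at 0 and differ between panels. PROSER2-AS1 is lower, and PROSER2 higher, in each of the 6 libraries labelled shCDK12 or shCDK12+OHT than in each of the 6 shNT and shNT+OHT libraries.

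Upon OHT, pairs called in the same direction were seen as well. From shCDK12 to shCDK12+OHT, 9 pairs were called in the same direction and 2 in opposite ones out of 39: EPB41L4A-AS1, GABPB1-AS1, GAS5-AS1, MRPL20-AS1, NOP14-AS1, OIP5-AS1 and SLC25A25-AS1 fell with their partners, and SH3BP5-AS1 and ZNF674-AS1 rose with theirs. NOP14, a nucleolar protein of ribosome assembly, went from 69.9, 60.8 and 58.1 to 40.2, 39.4 and 37.9 CPM (-0.68, edgeR adjusted p = 4.76e-05) and NOP14-AS1 from 66.2, 76 and 81.6 to 65.7, 61.3 and 59.3 (-0.27, edgeR adjusted p = 0.036). The call of NOP14-AS1 was lost without shCDK12 replicate 3 or any of the shCDK12+OHT libraries (edgeR adjusted p from 0.0515 to 0.163), with all 12 libraries in a single fit (0.136) and after thinning (0.0703). The opposite pairs were TENM3-AS1 (-0.84) with TENM3 (0.28) and URB1-AS1 (0.62) with URB1 (-0.30), a ribosome biogenesis gene whose start lies 83 bases from that of URB1-AS1. URB1-AS1 was at 21.8, 24.9 and 24.2 CPM in shCDK12 and 34.4, 38.6 and 36.6 in shCDK12+OHT, and URB1 at 138, 134 and 118 and 102, 111 and 103. The 9 pairs became 4 without shCDK12 replicate 3 or shCDK12+OHT replicate 1 or 3, and 5 without shCDK12+OHT replicate 2; the opposite pairs became 1 without shCDK12 replicate 3 or shCDK12+OHT replicate 1 or 2 and 3 without shCDK12 replicate 1. Upon OHT in shNT cells 1 pair of 35, MRPL20-AS1 with MRPL20, had both rows called, in the same direction, and that pair was lost without any of the 3 shNT libraries. Across the pairs the log2 fold changes had an r of 0.44 (Spearman 0.50) in shNT cells and 0.20 (Spearman 0.30) in the libraries labelled shCDK12. Whether these differ from the -0.24 seen between the hairpins was not tested.

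With OHT, the opposite pairs between the hairpins were PROSER2-AS1, CARD8-AS1, PCBP1-AS1 and URB1-AS1. PCBP1, which encodes a poly(rC)-binding protein and lies within the span of PCBP1-AS1, was at 266, 243 and 318 CPM in shNT+OHT and 176, 177 and 162 in shCDK12+OHT (-0.67, edgeR adjusted p = 0.00116), and PCBP1-AS1 at 38.8, 42.1 and 55.4 and 65.6, 74.9 and 67.3 (0.61, edgeR adjusted p = 0.00894). Without OHT the pair had been higher together in shCDK12, by 0.99 and 0.67. Of the 4 pairs, 1 stayed called in opposite directions in all 6 fits that left out a library, PROSER2-AS1; the count was 1 without shCDK12+OHT replicate 2 and 2 without shNT+OHT replicate 2 or shCDK12+OHT replicate 1 or 3. The 7 pairs called in the same direction became 2 without shCDK12+OHT replicate 1 or 3 and 3 without shNT+OHT replicate 3. The log2 ratio of antisense to sense CPM, taken as the median of the 43 pairs in each library, was -0.18, -0.13 and -0.26 in shNT, -0.11, 0.083 and -0.12 in shNT+OHT, 0.11, 0.15 and 0.17 in shCDK12 and 0.00, 0.051 and 0.031 in shCDK12+OHT. The shCDK12 libraries were the highest as labelled, above all others. This ratio changed under thinning. After random thinning of all libraries to equal totals, its group means were -0.0077 in shNT, 0.039 in shNT+OHT, 0.099 in shCDK12 and 0.086 in shCDK12+OHT. The part of depth in the ratio was not tested.

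Other noncoding RNAs named after a neighbour were fewer at this level. Of 14 divergent transcripts (names ending in -DT), 4 were higher and 7 lower in shCDK12 than in shNT, 7 were lower with the CDK12 hairpin in the presence of OHT, and upon OHT 3 rose and 2 fell in shNT cells and 4 rose and 4 fell in the libraries labelled shCDK12. Of all genes tested, 62%, 45.4%, 17.3% and 48.9% were called in these comparisons, in that order. APCDD1L-DT fell most in shCDK12 (-2.14, edgeR adjusted p = 1.46e-11). MAGI2-AS3, the 1 further antisense RNA with a higher number, fell upon OHT in shNT cells (-0.88, edgeR adjusted p = 0.0389) and was higher in shCDK12+OHT than in shNT+OHT (1.28, edgeR adjusted p = 0.00131). SLC9A3-OT1, an overlapping transcript, rose upon OHT in shNT cells (1.24, edgeR adjusted p = 9.18e-05) and fell from shCDK12 to shCDK12+OHT (-1.22, edgeR adjusted p = 8.83e-09), and the 2 intronic transcripts, ANP32A-IT1 and GABPB1-IT1, did not pass the test (edgeR adjusted p from 0.0907 to 0.7 over the 5 comparisons).

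Genes of nuclear RNA surveillance were read from a list of 24 (the exosome, its NEXT and PAXT adaptors, the cap-binding complex and XRN2). Their products take part in the decay of antisense and divergent RNAs. Upon OHT in shNT cells, 4 of 23 tested rose: EXOSC4 (1.04, edgeR adjusted p = 0.00494), EXOSC6 (0.47, edgeR adjusted p = 0.029), SRRT (0.50, edgeR adjusted p = 0.0121) and NCBP2 (0.53, edgeR adjusted p = 0.0112), with a median of 0.18 over the list against -0.029 over all genes, of which 17.3% were called and 9.05% higher. From shCDK12 to shCDK12+OHT 12 of 24 fell and 1, RBM7, a subunit of the NEXT complex, rose (0.57, edgeR adjusted p = 0.000114); of all genes 21.5% fell and 27.5% rose, and the median was -0.30 against 0.048. In shCDK12 against shNT 3 were higher, EXOSC9 (0.40), DIS3 (0.80), a catalytic subunit of the exosome, and SRRT (1.01), and 2 lower, EXOSC2 (-0.29) and EXOSC3 (-0.41), where 29.6% of all genes were higher and 32.4% lower. In shCDK12+OHT against shNT+OHT 1 was higher and 8 were lower, with a median of -0.24 against 0.048, where 23.8% of all genes were higher and 21.6% lower. These levels moved with the groups beside those of the antisense RNAs, and their part in the results was not tested.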

How the data were processed

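EU-seq was measured in 12 libraries of U2OS-MycER cells, 3 in each of 4 groups set from the labels. The authors deposited 1 table of raw counts per gene for 23434 Entrez gene identifiers, without normalization. The submitters' processing notes name STAR 2.7.5c, featureCounts 1.4.5-p1 and the build hg19; the annotation and the use of strand are not given in the sources used here, and the table has no mouse rows, so that total transcriptional output was not compared. Symbols came from RefSeq (GRCh38.p14) for 23284 rows, and the arrangement of pairs from GENCODE v44 (GRCh38), not from the build of the counts.

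Counts were fitted with edgeR 4.0.16 in R 4.3.3 (TMM normalization, quasi-likelihood test, Benjamini-Hochberg adjustment over all genes tested), keeping genes whose normalized count averaged over 32 in the fitted libraries. Each comparison of 2 groups used those 6 libraries and the interaction all 12. The fits were tested on simulated data. CPM values are counts relative to TMM-scaled library totals. Log2 ratios of antisense to sense used a pseudocount of 0.5 CPM. Named antisense RNAs were the 8 with the highest mean CPM, 3 each way in the interaction, and up to 4 opposite pairs per comparison. Up to 4 rises and 4 falls per comparison of 2 groups were also named, among called members whose groups did not overlap. The lack of overlap in these is thus no further support. Others were named after their values were seen. The members and lists were chosen with earlier results of these data known. Alternatives tried were upper-quartile normalization, DESeq2 1.42.0, looser filters, a single fit, a replicate block, thinning to 1251695 counts, removal of a gene length trend, other member limits and leaving out each library.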

Additional observations from a re-analysis of the deposited data

Results flagged for a closer look

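In 19 of the 43 antisense RNAs (44.2%) the response to OHT differed between the hairpins by the interaction test of edgeR, as labelled. Of all 11699 genes tested, 45.2% were called, so that the share of members was near the background. The values are the log2 response in shCDK12 minus that in shNT. The difference was -2.61 for KTN1-AS1, -1.86 for MAPKAPK5-AS1, -1.62 for DHRS4-AS1, -1.61 for TENM3-AS1, -1.54 for MRPL20-AS1, -1.44 for PRKCQ-AS1 and -1.21 for GABPB1-AS1. It was -1.12 for MIF-AS1, -0.96 for OIP5-AS1, -0.87 for EPB41L4A-AS1, -0.84 for SLC25A25-AS1, -0.69 for FOXD2-AS1 and -0.62 for NOP14-AS1. On the positive side it was 0.54 for PSMA3-AS1, 0.65 for LBX2-AS1, 0.84 for ZNF674-AS1, 0.84 for WAC-AS1, 1.49 for SH3BP5-AS1 and 1.81 for DLGAP1-AS1. Of these 19 calls 15 were kept in all 12 fits that left out a library, and those of LBX2-AS1, NOP14-AS1, PSMA3-AS1 and SLC25A25-AS1 were lost in at least 1. Under the 7 other settings 14 were kept in all. The calls of EPB41L4A-AS1, FOXD2-AS1, LBX2-AS1, NOP14-AS1 and PSMA3-AS1 were lost in at least 1 of these. CDK12 itself had an interaction of -0.83, and what the labels of the shCDK12 libraries stand for was not tested.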

How the results depend on the processing

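Comparisons are numbered: 1 is shNT+OHT against shNT, 2 is shCDK12+OHT against shCDK12, 3 is shCDK12 against shNT, 4 is shCDK12+OHT against shNT+OHT and 5 is the interaction; values are in that order. When single libraries were left out, the antisense RNAs called ran from 1 to 10, 16 to 23, 22 to 25, 13 to 22 and 16 to 23. Their median log2 change ran from -0.0084 to 0.14, -0.20 to -0.079, 0.14 to 0.22, -0.086 to 0.11 and -0.28 to -0.11. Pairs called the same way ran from 0 to 2, 4 to 9, 4 to 6, 2 to 9 and 4 to 8, and pairs called opposite ways from 0 to 0, 1 to 3, 6 to 9, 1 to 4 and 0 to 1. Counts of opposite pairs under alternatives were chosen after seeing the data.

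Thinning to the smallest total tested fewer genes and left 13, 11 and 12 members called in comparisons 2, 4 and 5, 0, 5, 1 and 3 pairs the same way in comparisons 1, 2, 4 and 5, and 0, 3, 2 and 0 opposite pairs in comparisons 2 to 5. The median ratio of antisense to sense became -0.0077 in shNT, 0.039 in shNT+OHT, 0.099 in shCDK12 and 0.086 in shCDK12+OHT. A single fit of 12 libraries called 11 members in comparison 1, with 3 same and 1 opposite pairs in comparison 2 and 6 opposite pairs in comparison 3. Without the gene length trend the medians were -0.071, 0.21 and 0.19 in comparisons 1, 3 and 4, with 1 member higher and 4 lower and 0 same pairs in comparison 1 and 2 opposite pairs in the interaction. Upper-quartile normalization gave a median of 0.20 and 7 same pairs in comparison 3, and DESeq2 1 opposite pair in comparison 2. The cause of these changes was not tested.

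A limit of 50 counts took in 90 members, more by construction, and called 12, 41, 44, 32 and 36. Medians were -0.079, -0.0086 and -0.14 in comparisons 1, 3 and 4. Same pairs numbered 3, 14, 7 and 12 in comparisons 1, 2, 3 and 5, and opposite pairs 2 in the interaction. A limit of 200 left 18 members and called 3, 10, 10, 8 and 8. Medians were -0.25 and -0.093 in comparisons 2 and 4. Same pairs numbered 2 and 3 in comparisons 3 and 4, and opposite pairs 0, 3, 2 and 0 in comparisons 2 to 5. Of all genes tested in the main fits, 17.3, 48.9, 62, 45.4 and 45.2% were called.

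Libraries were treated as unpaired. Between equal replicate numbers, deviations from the group means correlated from -0.092 to 0.30 (median 0.028), and 2 of the 18 values exceeded 0.1. Between different numbers they correlated from -0.34 to 0.0996 (median -0.019), and 0 of 36 exceeded 0.1. Whether some libraries share a batch was not tested. With the replicate block 6, 20, 26, 19 and 19 members were called. No antisense RNA called in a comparison changed sign there under the alternatives run; some without a call did.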
